A study of Mus musculus with 9 samples.

Results

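The genes examined encode the nuclear subunits and assembly factors of mouse oxidative phosphorylation, read in regenerating liver on Illumina bead arrays. A probe was taken where its platform gene symbol starts with Nduf, Uqcr, Cox4 to Cox8 or Atp5, or is Sdha, Sdhb, Sdhc, Sdhd or Cyc1, and where its detection p was under 0.05 on at least 4 of 9 arrays. Of 136 probes for 88 genes with such a symbol, 108 probes for 77 genes passed, out of 45281 probes on the array and 15687 that passed the same filter. Each gene was read by its brightest passing probe, and 11559 features were tested in all. The 77 member genes were 40 of complex I, 3 of complex II, 7 of complex III, 11 of complex IV and 16 of complex V.

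Total RNA came from snap-frozen whole livers of C57BL/6 mice, all taken 12 h after partial hepatectomy (PHx), surgery that removes part of the liver and starts its regrowth. The 4 control livers came from wild-type mice whose treatment is labelled only as control. The 5 others, called KO here, came from mice labelled LTRβ-/-, which lack the lymphotoxin β receptor (gene Ltbr) and were given etanercept 24 h before surgery. This drug joins part of a TNF receptor to an antibody tail and captures TNF and lymphotoxin α, so the KO group joins a germline deletion with a drug, and effects of genotype and of drug cannot be told apart. Age and sex of the mice and any agent given to the controls are not stated in the sources used here. The labels give each sample a surgery date as a number from 1 to 5 but no mouse identity, so p-values measure the spread between these samples.

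Oxidative phosphorylation passes electrons from NADH through complex I, or from succinate through complex II, to complexes III and IV, and the proton gradient built on the way drives ATP synthesis by complex V. Complexes I, III, IV and V hold subunits made from both mitochondrial and nuclear genes, and complex II is wholly nuclear-encoded. Hepatocytes are rich in mitochondria, and liver regrowth has a high demand for ATP.

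The mean signal per array lay between 336 and 438 on 8 arrays and was 143 on KO 4, where 9493 probes were detected against 13926 to 16186 on the others. KO 4 also had the fewest detected member probes, 93 against 104 to 109. The Ltbr probe read 6.41 to 6.97 on the normalized log2 scale in the controls and 4.87 to 6.77 in the KO livers, KO 4 being lowest, and whether it lies in the deleted stretch is not known, so it checks no label. All 8 hepatocyte markers were detected, with a median log2 difference between the groups (KO minus control) of 0.00, and of -0.11 without KO 4. Markers of other liver cells read higher in the KO livers: all 6 tested Kupffer cell markers (median 0.58), 4 of 5 endothelial markers (median 0.66), 5 of 6 smooth muscle and stellate cell markers (median 0.16) and both tested cholangiocyte markers (median 0.48). An unadjusted limma p under 0.05 was reached by 4 of the Kupffer cell markers, by Cdh5 of the endothelial ones and by Acta2, Tagln and, with a lower value in the KO livers, Lrat of the third list; only Acta2 passed after adjustment. For the macrophage receptor gene Marco the groups did not overlap (difference 1.10 ± 0.35, SE). Without KO 4 the list medians were 0.53 for Kupffer cell, 0.42 for endothelial and 0.30 for cholangiocyte markers. The smooth muscle and stellate cell markers then had a median of 0.22, with 4 of 6 higher. The part of these cells in the members' differences was not tested. Of the striated muscle markers 1 of 5 was tested, Actc1, with a difference of 0.76 (limma unadjusted p = 0.0891), or 0.75 without KO 4. In whole tissue, fewer cells of a type and less RNA per cell cannot be told apart.

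Promoter sequences were looked at because nuclear subunit genes share binding motifs for NRF1, for ETS factors such as GABPA, and for YY1. RefSeq windows of 300 bases (250 before and 50 after the start site, build GRCm38.p6) were given for 66 of the 77 members. Searched on both strands, the NRF1 motif, of 10 letters with any base allowed at 1 of them, was found in 17 of these 66 members (25.8%). It was in 5.19% of all 27025 genes with a window and in 11.3% of the 7582 such genes tested here. Some genes have several windows, and a match in any of them counted. The ETS motif CCGGAAG was in 18 members (27.3%, against 9.93% and 20.2%), and the YY1 motif AAGATGGC in 11 (16.7%, against 3.19% and 5.25%). At least 1 of the 3 was in 39 members (59.1%, against 16.4% and 31.9%). These matches are letters in a window, not measured binding.

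Stretches of 60 bases are shown for members named in the results, each 5′ to 3′ on the gene's strand, with the motif letters in capitals; the bases lie before the start site. Ndufa11 (chr17:56717677-56717736, plus strand), Ndufaf4 (chr4:24897945-24898004, plus strand), Atp5k (chr5:108434415-108434474, minus strand) and Atp5g2 (chr15:102671055-102671114, minus strand) carry the NRF1 motif, centred 55, 108, 45 and 37 bases before the start site. Their capitals spell the same 10 letters. Sdhd (chr9:50603863-50603922, minus strand) and Uqcrh (chr4:116075071-116075130, minus strand) carry the ETS motif on the other strand, centred 43 and 7 bases before the start, and Atp5j (chr16:84835005-84835064, minus strand) carries the YY1 and ETS motifs side by side without overlap.
Ndufa11: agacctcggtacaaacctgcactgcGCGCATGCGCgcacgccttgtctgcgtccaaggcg
Ndufaf4: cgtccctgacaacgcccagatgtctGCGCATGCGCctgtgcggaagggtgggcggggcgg
Atp5k: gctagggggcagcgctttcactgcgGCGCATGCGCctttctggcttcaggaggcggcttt
Atp5g2: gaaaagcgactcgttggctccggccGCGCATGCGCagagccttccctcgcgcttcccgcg
Sdhd: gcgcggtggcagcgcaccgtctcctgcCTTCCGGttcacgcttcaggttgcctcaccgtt
Uqcrh: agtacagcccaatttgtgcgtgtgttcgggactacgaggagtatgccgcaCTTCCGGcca
Atp5j: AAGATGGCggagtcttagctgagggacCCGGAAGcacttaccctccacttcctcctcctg

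The comparison of KO with control livers asks whether expression of the respiratory chain genes after hepatectomy differed when LTβR was absent and TNF and lymphotoxin were blocked. No member gene passed the threshold, a limma p adjusted over all features (Benjamini-Hochberg) under 0.05: 0 of 77 members were called, where 1 of 11559 features was (0.00865%; Acta2, smooth muscle actin), and 0 of 77 had an unadjusted p under 0.05, where 4.09% of all features did. The smallest member p was 0.109 (limma, unadjusted), and the smallest adjusted p was 0.931. The KO and control arrays overlapped for each of the 77 members, while 0.796% of all features had groups that did not overlap.

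In sign, 52 of the 77 members had a lower mean in the KO livers and 25 a higher one, and the share of all features with a lower mean was 52.4%. Their median log2 difference was -0.11, against -0.02 over all features. Scaling the arrays to a common median in place of quantiles put 76 of 77 members (98.7%) and 77.3% of all features lower, with medians of -0.56 and -0.26. By quantiles the median lay at -0.19 for complex I (29 of 40 lower), -0.23 for complex II (3 of 3 lower), -0.07 for complex III (5 of 7 lower), -0.01 for complex IV (6 of 11 lower) and -0.04 for complex V (9 of 16 lower). These medians moved when 1 array was left out: that of complex I ran from -0.30 without control 1 to -0.11 without KO 1 or KO 4, that of complex II from -0.44 without control 1 to -0.15 without control 3, and that of complex III from -0.11 without KO 2 to -0.03 without KO 4. Complex IV ran from -0.13 without KO 5 to 0.03 without KO 4 and was above 0 without control 3, KO 1, KO 2 or KO 4, and complex V ran from -0.09 without KO 5 to -0.01 without KO 2. Differences were small for most: 74 of 77 lay within 0.5 of zero on the log2 scale. For 48 members the 95% interval lay wholly between -1 and 1, that is, less than a 2-fold difference either way. The median standard error was 0.27 for members and 0.31 over all features.

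**Figure D1:**
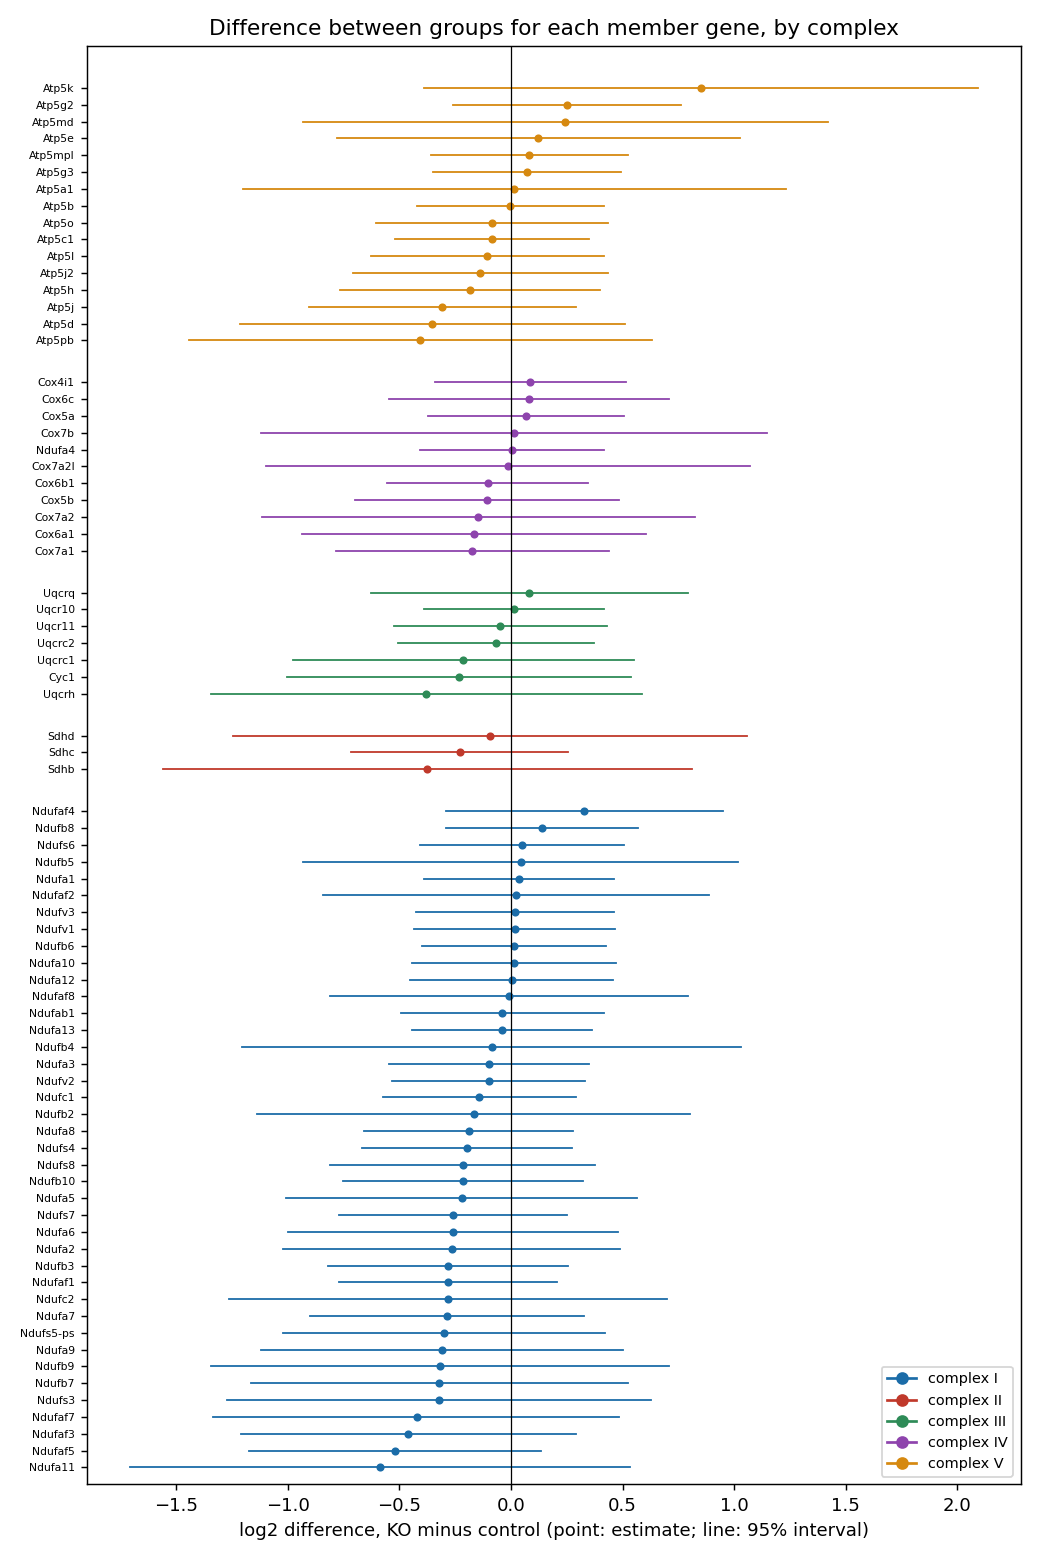
Log2 difference, KO minus control, for each of the 77 member genes, sorted within complexes I to V; points are limma estimates from 4 control and 5 KO arrays and lines are 95% intervals. The point farthest right is Atp5k (0.85), and the line of every member crosses 0.

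Complex I takes electrons from NADH. Its matrix arm, which holds the NADH site and the iron-sulfur clusters, had 14 tested members, 10 of them lower in the KO livers (median -0.22). KO 4 was the lowest array for 9 of the 14, and without it 13 were lower with a median of -0.04. Ndufa9, a matrix arm subunit near the ubiquinone site, is the member closest to Ltbr on chromosome 6, with 10 protein-coding genes between them. Its log2 values were 10.96, 11.56, 11.53 and 10.58 in controls 1 to 4 and 10.61, 11.46, 11.37, 9.78 and 11.03 in KO 1 to 5. Apart from KO 4 the KO arrays lay within the control range, and the difference was -0.31 ± 0.37 (SE; limma adjusted p = 0.931), or -0.04 without KO 4. Ndufs6, a zinc-binding accessory subunit, read 13.17, 12.80, 12.67 and 12.91 in the controls and 13.06, 12.96, 12.63, 13.15 and 12.90 in the KO livers. Both groups spanned almost the same range, with a difference of 0.05 ± 0.21 (SE).

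The membrane arm, which pumps protons, had 17 tested members, 12 of them lower in the KO livers (median -0.14, and -0.03 without control 3). Ndufa11, an accessory subunit, had the lowest difference of all members. It read 8.57, 9.77, 9.79 and 8.77 in controls 1 to 4 and 8.07, 9.58, 9.56, 7.13 and 8.85 in KO 1 to 5. Each group held both high and low arrays, with SDs of 0.65 (n = 4) and 1.05 (n = 5), and the difference of -0.59 ± 0.51 (SE; limma adjusted p = 0.931) was smaller than either SD. Without KO 4 it was -0.21. Ndufb3, likewise accessory, read 9.58, 9.81, 10.11 and 9.63 in the controls and 9.34, 9.55, 9.92, 8.98 and 9.70 in the KO livers, with a difference of -0.28 ± 0.24 (SE). Ndufa13, also known as GRIM-19, had the smallest SD over the 9 arrays of any member (0.08), with values between 13.41 and 13.68, and its difference was -0.04 ± 0.18 (SE).

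Assembly factors of complex I, which help to build it but are not in the finished enzyme, had 5 of 7 tested members lower in the KO livers (median -0.28). Ndufaf5, a hydroxylase of the subunit NDUFS7, had the smallest p of all members. Its values were 6.57, 7.29, 6.52 and 6.76 in controls 1 to 4 and 6.33, 6.14, 6.92, 5.52 and 6.42 in KO 1 to 5. KO 3 lay above 3 of the 4 controls and the other KO arrays below all of them, with a difference of -0.52 ± 0.30 (SE; limma adjusted p = 0.931). Ndufaf3 read 5.41, 5.57, 5.28 and 6.53 in the controls and 4.90, 4.84, 5.15, 6.15 and 5.15 in the KO livers, where it was detected on 2 of 5 arrays against 4 of 4 controls. All KO arrays but KO 4 lay below the lowest control (difference -0.46 ± 0.34, SE). Without KO 4 it was -0.69 ± 0.28 (SE; unadjusted p = 0.0314 and adjusted p = 0.899 by limma). In that fit 1 of 77 members, Ndufaf3, had an unadjusted p under 0.05, where 490 of 11559 features did. Ndufaf1, an early assembly factor, spanned 10.18 to 10.41 in the controls and 9.56 to 10.38 in the KO livers, a difference of -0.28 ± 0.22 (SE). Ndufaf4 went the other way, at 11.73, 10.86, 11.21 and 11.08 in the controls and 12.11, 11.53, 10.90, 11.74 and 11.48 in the KO livers (difference 0.33 ± 0.28, SE). Its highest and second lowest arrays were both KO livers, so the groups overlapped widely.

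Complex II, succinate dehydrogenase, also works in the tricarboxylic acid cycle, and its members were the iron-sulfur subunit gene Sdhb and the membrane anchor genes Sdhc and Sdhd. Sdhb read 8.63, 9.75, 9.93 and 8.71 in controls 1 to 4 and 8.38, 9.74, 9.75, 7.15 and 9.40 in KO 1 to 5. Low and high readings occurred in both groups, and the difference was -0.37 ± 0.54 (SE; limma adjusted p = 0.939). Without KO 4 it was 0.06, of the opposite sign. Sdhc read 11.13, 11.36, 11.42 and 11.58 in the controls and 11.26, 10.87, 11.19, 11.53 and 10.86 in the KO livers, with a difference of -0.23 ± 0.22 (SE). Sdhd read 7.14, 7.68, 8.65 and 9.28 in the controls and 7.52, 6.79, 8.86, 8.72 and 8.58 in the KO livers. Its spread of more than 2 log2 units ran across both groups, and the group difference was -0.09 ± 0.52 (SE). The flavoprotein gene Sdha had a probe that was detected on 0 arrays, so the catalytic pair was read through Sdhb alone.

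Complex III passes electrons from ubiquinol to cytochrome c. Cyc1, which encodes cytochrome c1, the heme subunit that hands the electron on, read 10.85, 11.40, 11.31 and 10.48 in controls 1 to 4 and 10.54, 11.28, 11.28, 9.74 and 11.05 in KO 1 to 5. The hinge protein gene Uqcrh read 10.38, 11.28, 11.06 and 10.20 in the controls and 9.79, 11.13, 11.00, 9.07 and 10.77 in the KO livers. For both genes controls 2 and 3 and KO 2 and KO 3 were the high arrays and KO 4 the lowest. The differences were -0.23 ± 0.35 (SE) for Cyc1 and -0.38 ± 0.44 (SE; limma adjusted p = 0.931) for Uqcrh. Without KO 4 they were 0.03 for Cyc1, of the opposite sign, and -0.06 for Uqcrh. The core subunit genes Uqcrc1 and Uqcrc2 differed by -0.21 ± 0.35 (SE) and -0.07 ± 0.20 (SE), and by -0.04 and 0.02 without KO 4. Uqcr10, an accessory subunit, varied little, between 13.17 and 13.42, with a difference of 0.01 ± 0.18 (SE). Both probes for Uqcrfs1, the Rieske iron-sulfur protein, were detected on 0 arrays.

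Complex IV, cytochrome c oxidase, has subunits with tissue-specific isoforms. Of the general isoforms, Cox4i1 read 13.37, 13.25, 13.35 and 13.05 in controls 1 to 4 and 13.25, 13.39, 13.24, 13.58 and 13.26 in KO 1 to 5, a difference of 0.09 ± 0.19 (SE). Cox6b1 differed by -0.11 ± 0.21 (SE) and Cox6a1 by -0.17 ± 0.35 (SE). Of the tissue-restricted isoforms, Cox4i2, Cox6b2, Cox7b2, Cox8b and Cox8c were detected on 0 arrays and the heart and muscle isoform Cox6a2 on 2, so none of these was tested. Cox7a1, the other heart and muscle isoform, was tested: it was detected on 4 of 4 control and 4 of 5 KO arrays, at 5.31, 5.53, 5.49 and 5.61 in the controls and 5.18, 5.85, 5.38, 4.49 and 5.64 in the KO livers. The highest and lowest of its arrays were KO livers, and its difference was -0.17 ± 0.28 (SE). Cox7a2, the isoform of most other tissues, read 9.08, 9.30, 9.50 and 10.71 in the controls and 9.06, 8.52, 9.58, 10.59 and 9.76 in the KO livers, a difference of -0.15 ± 0.44 (SE). Control 4 and KO 4 stood above the rest.

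Other complex IV members had small differences between the groups. Cox7a2l, which encodes a factor that joins complexes III and IV into supercomplexes and of which C57BL/6 mice are known to carry a shortened form, read 8.64, 9.21, 9.56 and 8.09 in the controls and 8.27, 9.90, 9.39, 7.43 and 9.32 in the KO livers. Its range of over 2 log2 units was found within the KO group itself, and the group difference was -0.01 ± 0.49 (SE). Ndufa4, named for complex I but since placed in complex IV, stayed between 12.96 and 13.29 on all arrays, with a difference of 0.00 ± 0.19 (SE). The subunits Cox5a and Cox5b, which bind the matrix side of the enzyme, differed by 0.07 ± 0.20 (SE) and -0.11 ± 0.27 (SE).

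Complex V, the ATP synthase, has a catalytic F1 head, a peripheral stalk that holds it still and a membrane part that carries protons. The F1 members had a median difference of -0.00, with 3 of 5 lower, and of -0.08 without KO 4, with 5 of 5 lower. Atp5b, the catalytic β subunit gene, read 14.37, 14.08, 14.05 and 13.98 in controls 1 to 4 and 14.26, 14.04, 14.07, 14.12 and 14.10 in KO 1 to 5, and the group means were equal to 2 decimals (14.12 each; difference -0.00 ± 0.19, SE). Atp5d, the δ subunit gene of the central stalk, differed by -0.35 ± 0.39 (SE), or -0.08 without KO 4. The peripheral stalk members were all lower in the KO livers in sign (4 of 4, median -0.25), and KO 4 was the lowest array for each. Without it 3 of 4 were lower, with a median of -0.06. Among them Atp5pb, the stalk subunit b gene, read 9.63, 10.79, 10.71 and 9.84 in the controls and 9.24, 10.56, 10.74, 8.47 and 10.17 in the KO livers. Its difference of -0.41 ± 0.47 (SE; limma adjusted p = 0.931) was -0.07 without KO 4. Atp5j, the coupling factor gene, read 11.50, 11.89, 11.86 and 11.24 in the controls and 11.11, 11.59, 11.71, 10.65 and 11.51 in the KO livers, and Atp5h, the subunit d gene, differed by -0.19 ± 0.27 (SE). The Atp5j arrays overlapped, with 3 KO livers inside the control range and a difference of -0.31 ± 0.27 (SE), or -0.14 without KO 4.

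The membrane part of complex V had 5 of 7 tested members higher in the KO livers (median 0.08, and 0.01 without KO 4). Atp5k, which encodes the small subunit e found where ATP synthases pair, had the highest difference of all members. Its values were 7.42, 5.91, 7.11 and 5.77 in controls 1 to 4 and 7.80, 7.62, 5.53, 8.53 and 7.55 in KO 1 to 5. In the KO group 4 of 5 arrays lay above all controls, but KO 3 had the lowest value of all, and the difference was 0.85 ± 0.56 (SE; unadjusted p = 0.159 and adjusted p = 0.931 by limma). Its sign turned on surgery date 5, with 2.04 on date 1, 2.62 on date 2 and -1.89 on date 5, each 1 array against 1 on the other slide. Of the genes for the proton-carrying c subunit, Atp5g2 spanned 9.22 to 9.40 in the controls and 9.21 to 10.16 in the KO livers, with a difference of 0.25 ± 0.23 (SE). Atp5g3 spanned 14.35 to 14.66 and 14.39 to 14.70, with a difference of 0.07 ± 0.19 (SE).

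For the mean over all members, the spread between arrays was larger than the group difference, and it had a form shared by many members. The mean log2 deviation over all 77 members was -0.12, 0.10, 0.25 and 0.02 on controls 1 to 4 and -0.24, -0.03, 0.14, -0.19 and 0.08 on KO 1 to 5. Its mean was 0.06 ± 0.16 (SD, n = 4) in the controls and -0.05 ± 0.17 (SD, n = 5) in the KO livers, a gap within the spread of either group. KO 4, the dim array, was the lowest array for 35 of the 77 members (45.5%), where it was lowest for 34.8% of all features, and it was the highest for 16 (20.8%, against 25.5%). Control 2 was highest for 18 members (23.4%, against 11.2% of all features) and control 3 for 11 (14.3%, against 4.91%). The part of array brightness in these counts was not tested.

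**Figure D2:**
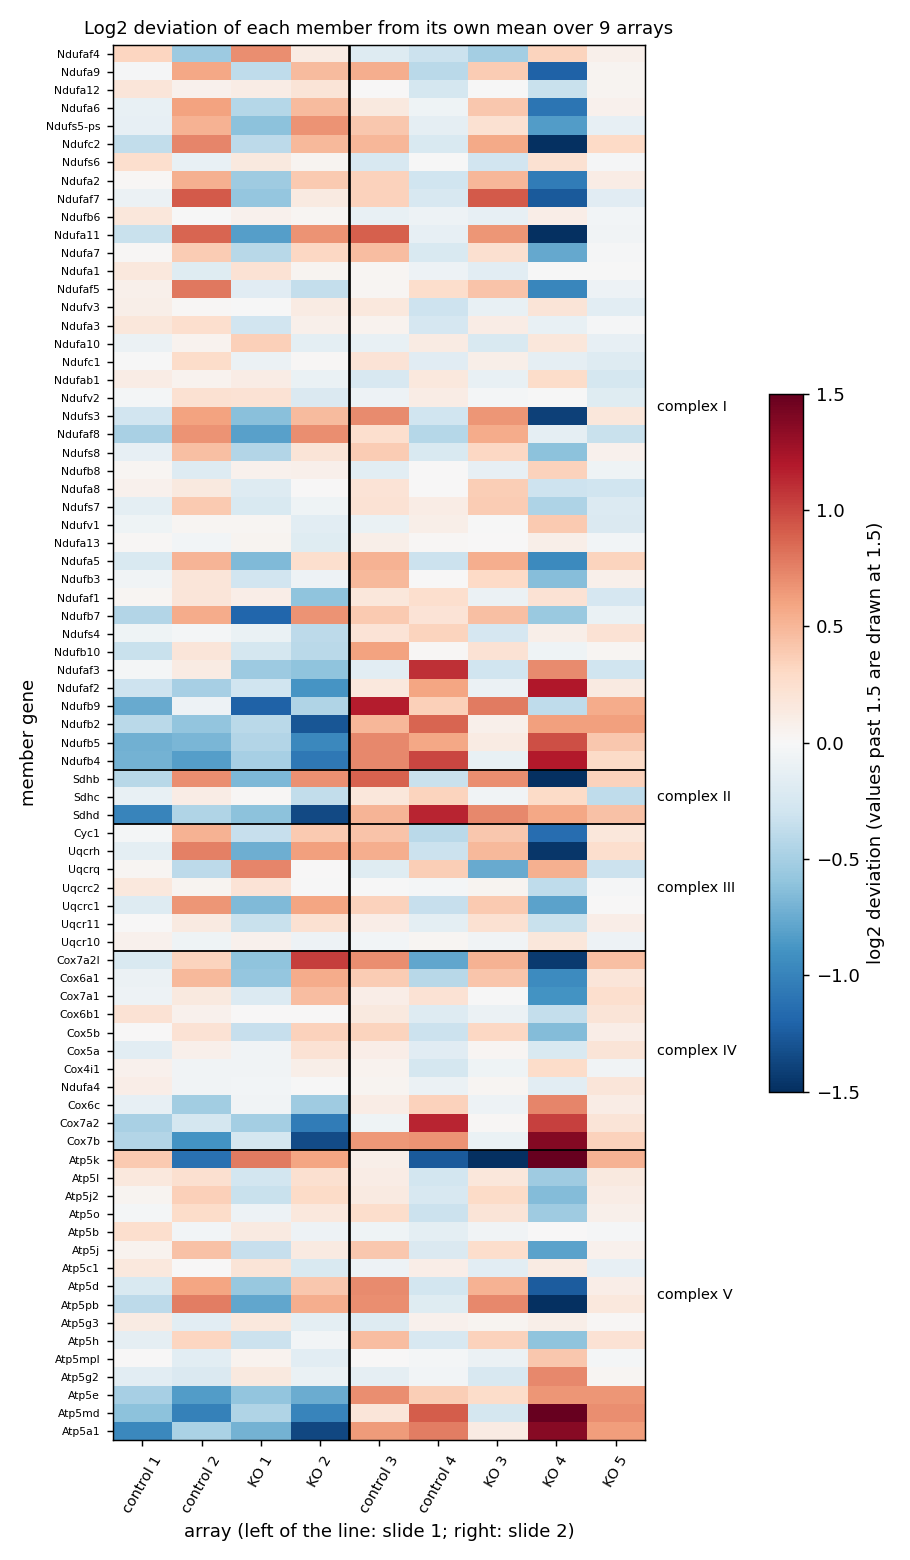
Log2 deviation of each of the 77 members (rows, grouped by complex) from its own mean over the 9 arrays (columns; the vertical line divides slide 1 from slide 2); red is above and blue below the mean. Many members share a pattern in which control 2, control 3, KO 2 and KO 3 are red and KO 1 and KO 4 blue, and a second set is blue on all of slide 1 and red on most of slide 2.

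**Figure D3:**
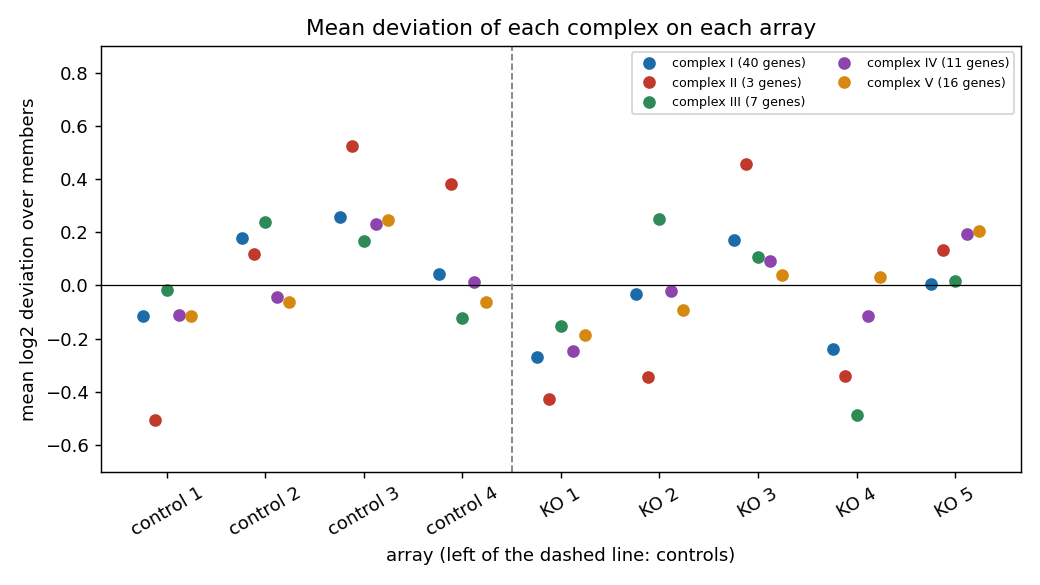
Mean log2 deviation over the members of each complex (colours) on each array, controls to the left of the dashed line. Complex II, with 3 genes, swings from -0.51 on control 1 to 0.52 on control 3, and complex III is lowest on KO 4 (-0.49).

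The median difference over all members was -0.15 on slide 1 (controls 1 and 2 against KO 1 and KO 2) and -0.11 on slide 2 (controls 3 and 4 against KO 3 to KO 5). Within surgery dates, where 1 array stood against 1, it was -0.16 on date 1, -0.31 on date 2 (the pair with KO 4) and 0.23 on date 5, so the sign was not the same on each date. The arrays of each pair lay on different slides. On date 1 the KO array was on slide 1, and on dates 2 and 5 it was on slide 2. Within these pairs, group and slide cannot be told apart. With surgery date as a block in the fit 50 of 77 members were lower (median -0.08). Its differences rest on the pairs of dates 1, 2 and 5 alone. With the block and without KO 4 they rest on dates 1 and 5 alone, and 33 of 77 were lower (median 0.02). The complex I median was 0.03 in that last fit. Without KO 4 and with no block 54 of 77 members were lower (median -0.04), where 51% of all features were. In complex I it was 34 of 40 (median -0.11).

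A second pattern followed the slide, which the barcode in each sample's title gives, and it was looked for after the values were seen. In a limma fit with group and slide, 11 members were higher on slide 2 at an unadjusted p under 0.05 (3.81% of all features were), and 0 were lower (0.882% of all features). The arrays of the slides did not overlap for 10 members that were higher on slide 2 (2.21% of all features) and for 1 that was lower (0.562%), Ndufa12. After adjustment 0 of 11559 features passed, and the lowest adjusted p among members was 0.187. The fit without KO 4 also gave 11 members (4.72% of all features), and median scaling gave 4 (0.536% of all features). In the authors' deposited normalized values 0 of 11559 features were higher on slide 2 at that p. The count of 0 members there is therefore no check of this pattern.

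The member with the smallest slide p was Sdhd, at a mean of 7.28 on slide 1 and 8.82 on slide 2, a fitted difference of 1.56 ± 0.25 (SE; limma unadjusted p = 0.000106). Atp5a1, the α subunit gene of F1, had the largest difference, 1.60 ± 0.30 (SE). It read 9.55 and 10.04 in controls 1 and 2, 9.80 and 9.15 in KO 1 and KO 2, 11.16 and 11.28 in controls 3 and 4, and 10.64, 11.88 and 11.14 in KO 3 to KO 5. Controls and KO livers of one slide thus read alike and the slides stood apart, while its group difference was 0.01 ± 0.55 (SE). A further probe for Atp5a1, with a mean of 6.11 against 10.52, differed between slides by -0.54, so the probes of the gene went opposite ways.

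Subunits in the membrane arm of complex I made up 4 of the 11: Ndufb4 (slide difference 1.42), Ndufb5 (1.27), Ndufb2 (1.24) and Ndufb9 (1.16), of which Ndufb9 alone had slides that overlapped. The others were Atp5md (1.37) and Atp5e (1.20) of complex V, Cox7b (1.34) and Cox7a2 (1.07) of complex IV and the assembly factor Ndufaf2 (0.90). All 11 lay at or below the median signal of the members. Among passing probes that were not used, those of Ndufa5, Atp5pb, Ndufb10 and Ndufs4 differed most between slides, by 1.545, 1.199, 1.052 and 0.997. The probes used for these genes differed by 0.079, -0.025, 0.392 and 0.289. Other unused probes differed by less, so probes of the same gene did not always share the slide difference. Each slide held both groups, so the group difference could be given within slides, as above.

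**Figure D4:**
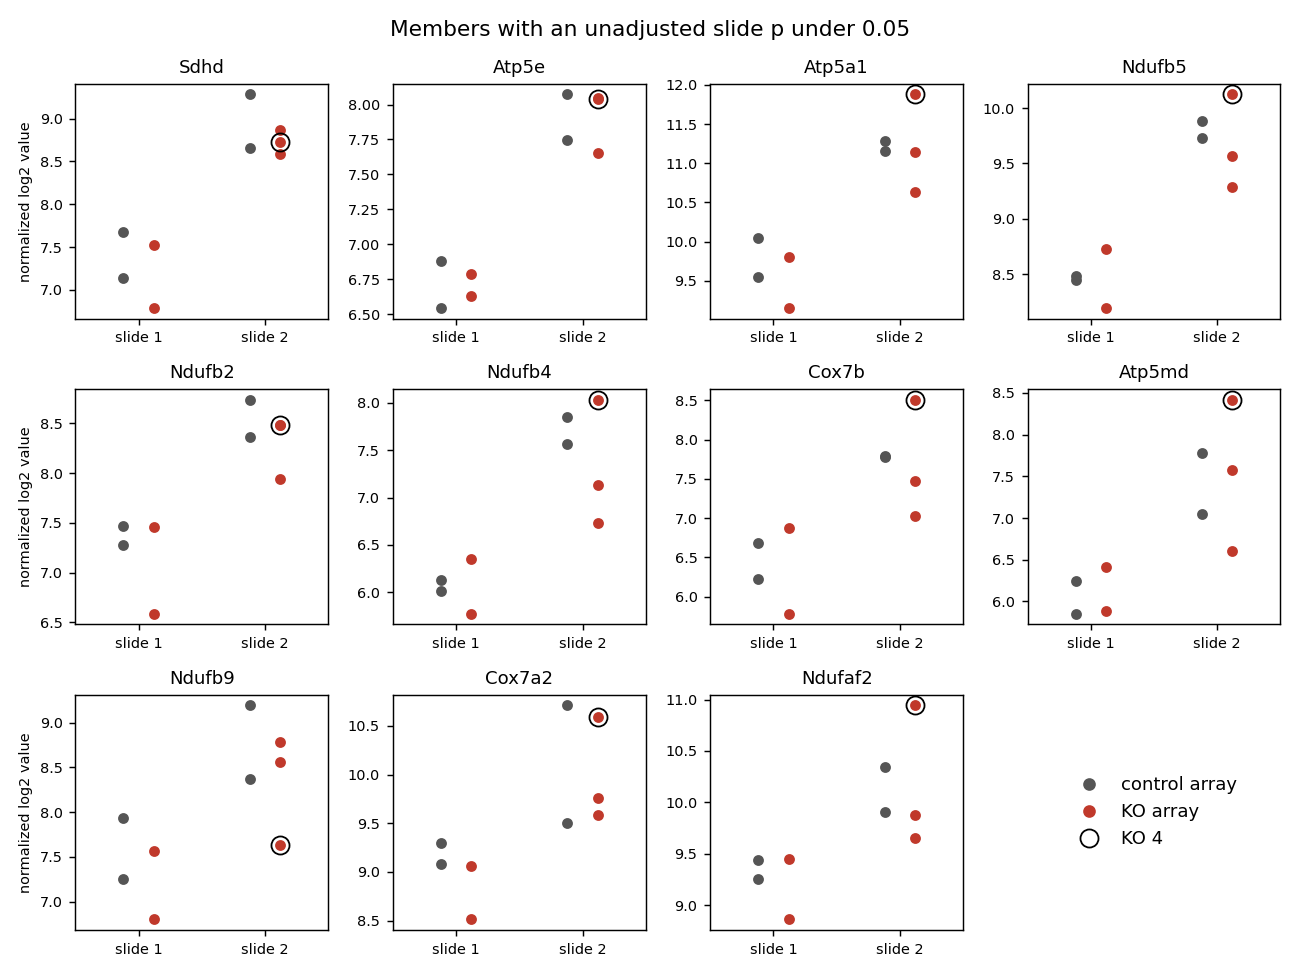
Normalized log2 values of the 11 members with an unadjusted slide p under 0.05, by slide; grey points are control arrays, red points KO arrays, and the ring marks KO 4. In 10 of the 11 panels the points of slide 1 lie below those of slide 2, whatever their group; the exception is Ndufb9, where KO 4 reads 7.63 on slide 2.

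As a set, members with weaker probe signal varied more. The 38 members above the median signal had a median SD over the 9 arrays of 0.19 and a median standard error of the group difference of 0.21. For the 39 at or below it these were 0.64 and 0.39. A difference of a given size was therefore harder to detect in the second set, which holds Atp5k, Ndufa11, Sdhb and Sdhd.

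**Figure D5:**
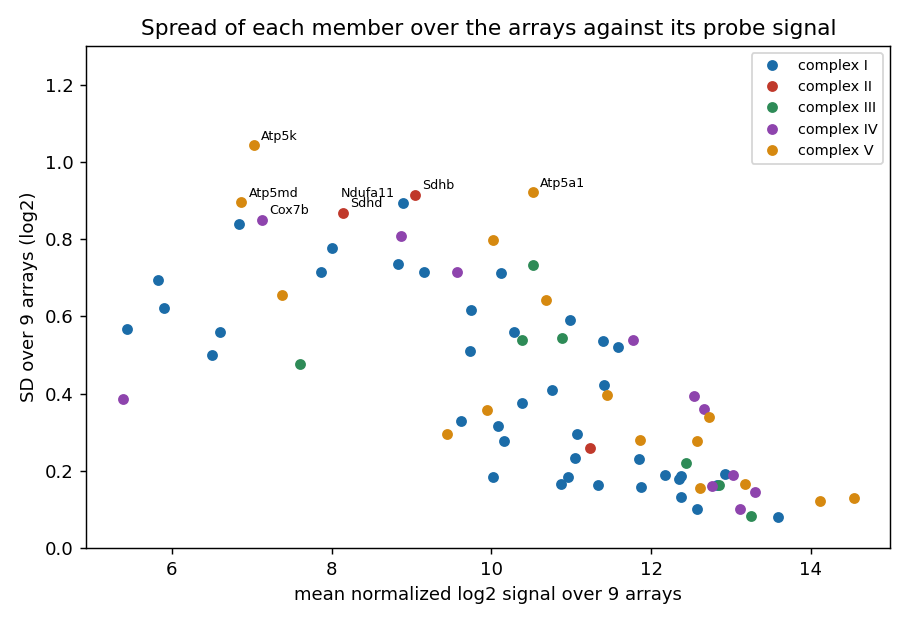
SD over the 9 arrays against mean normalized log2 signal for each of the 77 members, coloured by complex; genes with an SD above 0.85 are labelled. Spread is small for the brightest members and runs from 0.08 for Ndufa13 to 1.04 for Atp5k. The weakest member, Cox7a1, has an SD of 0.39, so spread does not decline steadily with signal.

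For 25 members more than 1 probe passed the filter, and the probes did not always share a sign. Atp5pb had 4, with group differences from -0.61 to 0.14, and Ndufab1, the acyl carrier protein gene, also had 4, from -0.40 to 0.29. The Ndufs4 probes ran from -0.41 to 0.01, and both Sdhb probes were negative (-0.47 and -0.37). Ndufs5-ps is a pseudogene by its symbol, and its probe may share signal with Ndufs5, so its value is uncertain. At the detection limit, Ndufaf3 was detected on 6 arrays and counted as a member, and Cox6a2, detected on 2, was not. The 11 genes left out were Cox4i2, Cox6a2, Cox6b2, Cox7b2, Cox8b, Cox8c, Ndufaf6, Ndufb11, Ndufs1, Sdha and Uqcrfs1.

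In the authors' deposited normalized values the same fit called 1 member, Ndufs4, an accessory subunit of the matrix arm of complex I, where 9.27% of all features were called. Those values of Ndufs4 were 11.35, 11.21, 11.29 and 11.15 in controls 1 to 4 and 11.06, 10.84, 10.85, 11.00 and 11.10 in KO 1 to 5. The difference by that table was -0.28 ± 0.07 (SE; limma adjusted p = 0.0454). In the quantile-normalized values the Ndufs4 difference was -0.20 ± 0.21 (SE), with a limma adjusted p of 0.931, and the groups overlapped. At an unadjusted p under 0.05 there were 9 of 77 members, against 33.6% of all features. In that table the mean of the control and the KO array of a surgery date was the same, within 0.005, on all 3 dates that hold both groups, for 77 of 77 members and 11559 of 11559 features. In the quantile-normalized values this held for 0 features, and the date means of a member spanned a median of 0.40. The deposited values thus carry no difference between these dates, which the SE and p of a fit without date do not account for. With surgery date as a block in these values 0 features were called. The differences of that fit come only from the 3 dates that hold both groups. In the deposited values 0 of 11559 features were higher on slide 2 at an unadjusted p under 0.05 (limma with group and slide). In the quantile-normalized values 3.81% were. If slide was taken out as well, the SE and p of these fits do not account for that either.

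The rest of the pathway was described by lists of genes. Of 13 mitochondrially encoded subunit genes 7 were tested, with 5 higher in the KO livers (median 0.10) and 0 called. ND1, a complex I subunit gene, read 13.64, 13.54, 14.17 and 14.19 in controls 1 to 4 and 13.82, 13.82, 13.69, 14.70 and 13.91 in KO 1 to 5, a difference of 0.10 ± 0.27 (SE). ND6 had the smallest p of the list, with a difference of 0.62 ± 0.53 (SE; limma adjusted p = 0.931), and ND5 came next at 0.31 ± 0.48 (SE). CYTB, the complex III gene of this genome, differed by 0.03 ± 0.19 (SE). KO 4 had the highest value for each of these 4 genes. Without it the differences were -0.08 for ND1, 0.27 for ND6, -0.17 for ND5 and -0.03 for CYTB, and the list's median was -0.07 with 5 of 7 genes lower.

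Assembly factors of all 5 complexes, which include the Ndufaf members, had 48 tested genes, 13 higher and 35 lower (median -0.21, 0 called). The smallest p belonged to Cmc2 (-0.71 ± 0.36, SE) and Sdhaf4 (-0.49 ± 0.27, SE), which act on complexes IV and II. Electron carriers and carriers of the inner membrane had 23 tested, 17 of them lower (median -0.08, and -0.17 without KO 4; 0 called). Slc25a20, the carnitine-acylcarnitine carrier gene, differed by -0.72 ± 0.28 (SE; unadjusted p = 0.0246 and adjusted p = 0.931 by limma), and Coq3, a methyltransferase of ubiquinone synthesis, by -0.47 ± 0.25 (SE). Genes of the tricarboxylic acid cycle and pyruvate dehydrogenase had 16 tested, 13 of them lower (median -0.13, 0 called), among them Fh1, fumarase (-0.55 ± 0.27, SE), and Pdhb (-0.47 ± 0.29, SE).

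Regulators of mitochondrial genes had 20 tested members, 7 higher and 13 lower (median -0.06, 0 called). The coactivator gene Ppargc1a read 5.48, 6.47, 7.09 and 5.83 in controls 1 to 4 and 7.80, 6.10, 5.74, 4.43 and 4.93 in KO 1 to 5. KO livers held both its highest and its lowest values, and the difference was -0.42 ± 0.61 (SE). Its relative Ppargc1b read 7.92, 5.95, 7.10 and 6.73 in the controls and 8.26, 8.38, 6.79, 7.66 and 8.03 in the KO livers, a difference of 0.90 ± 0.42 (SE; limma adjusted p = 0.931). Polg2, the accessory subunit gene of the mitochondrial DNA polymerase, differed by -0.69 ± 0.28 (SE; unadjusted p = 0.0295 and adjusted p = 0.931 by limma). Nrf1 and Gabpa, genes of factors named above for the NRF1 and ETS motifs, differed by 0.27 ± 0.40 (SE) and 0.57 ± 0.31 (SE). No value for Yy1, whose motif was also shown, is given here. Tfam, which packages mitochondrial DNA, differed by -0.25 ± 0.40 (SE). Esrra, a nuclear receptor that works with these coactivators, differed by -0.22 ± 0.29 (SE). None of these genes was called.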

How the data were processed

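In the non-normalized file deposited by the authors, each probe has 1 bead intensity and 1 detection p-value per array, per the file headers; background handling before deposit is not given in the sources used here. The authors' deposited normalized log2 values (a scale read from their range) were made with Partek (version not stated), per the submitters' processing notes, with column medians of 6.77 to 6.80 and equal means of 7.29, and further steps are not stated. By their values surgery date was taken out of them, as the report shows. They also hold 0 of 11559 features higher on slide 2 at an unadjusted limma p under 0.05, and whether slide was taken out too is not stated. The arrays are 1-colour and biotin-labelled, per the labels' protocols, and their number limits the precision. All 27 value columns were used.

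Intensities were corrected with limma neqc (offset 16; negative controls inferred from the detection p-values, which run in steps of 1/936), quantile-normalized and taken to log2. Symbols came from the platform annotation, and all 77 members matched a RefSeq table of GRCm38.p6 by Entrez gene ID. Of the probes, 34885 have 1 symbol, 10378 none and 18 several; probes with none or several were not named. The 11559 features comprised 9319 with a symbol and 2240 without. Groups were compared by limma (lmFit, eBayes, two-sided, no covariates), adjusted by Benjamini-Hochberg over all features. Differences are KO minus control, SD is over arrays, and intervals are 95%. Python 3.11.15, R 4.3.3 and limma 3.58.1 were used, and the test was checked on simulated data.

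Members, lists and tests were chosen with earlier results of these data known, and the slide comparison after the values were seen. Named were, per complex, the members with the smallest p (6 in complexes I, IV and V, 4 in III, all in II) and the 2 with the highest signal, the isoform genes of complex IV, Ndufa9, members with an unadjusted slide p under 0.05, the 2 listed genes of each pathway list with the smallest p, and 5 regulators. Others (such as ND1, CYTB, Ndufs4, Ndufab1, Ndufa12) were named after their values were seen. No probe carries the symbol Cox8a here.

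By the labels, surgery dates pair control and KO arrays on dates 1, 2 and 5. The arrays of each pair lie on different slides. Same-date deviations from group means correlated across features at 0.17 on date 1, -0.41 on date 2 and -0.56 on date 5, and at 0.34 for the KO arrays of date 4, and the consensus correlation was -0.09. Alternatives were the surgery date as a block or random effect, slide, each array left out, background correction, normalization, filter, probe choice, the authors' values and variance models.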

Additional observations from a re-analysis of the deposited data

Results flagged for a closer look

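Among 132 groups of 4 or 5 values checked, 6 had 1 array farther from the rest than Dixon's 95% limit, and chance alone flags about 1 group in 20. KO 4, the dim array, was the one apart in 4 of them. It read 14.7 for ND1, where the other KO arrays read 13.69 to 13.91, and 7.32 for ND5, where they read 4.85 to 5.09. It also stood above the others for Ndufaf3, at 6.15 against 4.84 to 5.15, and below them for Pdhb, at 6.2 against 7.22 to 7.44. KO 3 read 9.38 for Sdhaf4, where the other KO arrays read 8.51 to 8.73. For complex V the mean deviation of control 3 was 0.24, and that of the other controls lay between -0.12 and -0.06. The part of array brightness in the KO 4 values was not tested.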

How the results depend on the processing

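No named member passed the threshold under any alternative run (43 members, 1327 values); the authors' values called 1 further member, Ndufs4, and also passed Cmc2, Coq3 and Polg2 (adjusted p 0.0281, 0.012 and 0.0265, limma). Signs of these uncalled differences were not stable: 227 of the 1327 values had the other sign, 173 of them in a tested alternative, and the values that turned are given here with those of other named genes. The cause of these turns was not tested.

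Over all features 1 was called. The count was 0 with surgery date as replicate block (with or without KO 4, and in the authors' values), with slide as a term, within slide 1 or slide 2 alone, with median scaling, with the mean of a gene's probes and with every probe as a feature. It was 4 without KO 4 from background correction on, 10 with array weights (0.142 for KO 4 and 4.92 for KO 5) and 1072 in the authors' values, where 1 member was called. With each array left out in turn it ranged from 0 to 4 (0 without controls 1, 2 or 3 or KO 1, 2, 3 or 5, and 4 without KO 4).

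The all-member median was above 0 in 2 of 33 alternatives. With 1 array left out it ranged from -0.171 to -0.0423, highest without KO 4. On surgery date 2 the medians were -0.306 for all members, -0.468 for complex III and -0.306 for complex IV. On date 5 they were 0.231 for all members and 0.326, 1.12, 0.222, 0.18 and 0.215 for complexes I to V. Median scaling, under which the median of all features was -0.256, gave -0.56 for all members and -0.578, -0.683, -0.55, -0.386 and -0.475 for complexes I to V. It also turned Atp5a1 (-0.426), Atp5e (-0.244), Atp5g2 (-0.183), Atp5g3 (-0.212), Atp5md (-0.14), Cox4i1 (-0.352), Cox5a (-0.386), Cox7b (-0.373), CYTB (-0.117), ND1 (-0.146), ND5 (-0.0428), Ndufa4 (-0.45), Ndufaf2 (-0.443), Ndufaf4 (-0.105), Ndufb5 (-0.41), Ndufs6 (-0.357), Nrf1 (-0.164) and Uqcr10 (-0.401) negative.

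Surgery date as replicate block turned Atp5b (0.00679), Cox7a2 (0.0471), Esrra (0.118), Ndufa13 (0.0412), Ndufb2 (0.138), Ndufb4 (0.371), Ppargc1a (0.0654) and Sdhd (0.334) positive and Cox5a (-0.00269), Ndufa4 (-0.0381) and Ndufs6 (-0.0154) negative. Block differences rest on the dates that hold both groups, and each such pair lies across the slides. With the block and without KO 4, a fit chosen after seeing the data, dates 1 and 5 alone give the differences. In that fit the complex I median was 0.0267. There Atp5d (0.232), Atp5h (0.196), Atp5j (0.0427), Atp5pb (0.255), Cox5b (0.139), Cox6a1 (0.174), Cox7a2l (0.464), Cyc1 (0.245), Esrra (0.355), Fh1 (0.0895), Ndufa11 (0.145), Ndufa13 (0.00217), Ndufa9 (0.219), Ndufb3 (0.0293), Ppargc1a (1.12), Sdhaf4 (0.103), Sdhb (0.391), Uqcrc1 (0.134), Uqcrc2 (0.0609) and Uqcrh (0.107) turned positive. Atp5a1 (-0.195), Atp5e (-0.0904), Atp5md (-0.505), Cox7b (-0.29), CYTB (-0.0606), ND1 (-0.159), ND5 (-0.321), Ndufa4 (-0.00914), Ndufaf2 (-0.339), Ndufb5 (-0.0821), Ndufs6 (-0.194), Nrf1 (-0.303) and Uqcr10 (-0.0365) turned negative. Date as a random effect turned Cox7a2l (0.0396), Atp5a1 (-0.0288), Cox7b (-0.0426) and Ndufaf2 (-0.0145).

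With KO 4 left out from background correction on, Cox5b (0.0431), Cox6a1 (0.0524), Cox7a1 (0.0303), Cox7a2l (0.344), Cyc1 (0.0271), Sdhb (0.0582), Tfam (0.114) and Uqcrc2 (0.0181) turned positive. Atp5a1 (-0.324), Atp5e (-0.0303), Atp5md (-0.118), Cox7b (-0.337), CYTB (-0.0249), ND1 (-0.0754), ND5 (-0.176), Ndufaf2 (-0.274), Ndufb5 (-0.193), Ndufs6 (-0.00153) and Uqcr10 (-0.0274) turned negative. Array weights turned Cox6b1 (0.0355), Cox7a1 (0.0945), Cox7a2l (0.269), Ndufb2 (0.131), Sdhd (0.0912), Tfam (0.2), ND1 (-0.0118), ND5 (-0.139), Ndufaf2 (-0.0114) and Uqcr10 (-0.0352).

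With single arrays left out after normalization, 27 named genes turned at least once. They were Atp5a1 (-0.324 to 0.357), Atp5b (-0.0502 to 0.0818), Atp5e (-0.133 to 0.377), Atp5md (-0.117 to 0.591), Cox5b (-0.235 to 0.0431), Cox6a1 (-0.335 to 0.0525), Cox7a1 (-0.308 to 0.0297), Cox7a2 (-0.419 to 0.208), Cox7a2l (-0.275 to 0.344), Cox7b (-0.331 to 0.35), Cyc1 (-0.409 to 0.0272), CYTB (-0.0327 to 0.0744), ND1 (-0.0771 to 0.201) and ND5 (-0.166 to 0.475). The others were Ndufa13 (-0.0659 to 9.29e-05), Ndufa4 (-0.0404 to 0.0427), Ndufaf2 (-0.274 to 0.245), Ndufb2 (-0.397 to 0.134), Ndufb4 (-0.394 to 0.232), Ndufb5 (-0.193 to 0.294), Ndufb9 (-0.629 to 0.0174), Ndufs6 (-0.0218 to 0.143), Sdhb (-0.592 to 0.0582), Sdhd (-0.443 to 0.271), Tfam (-0.411 to 0.114), Uqcr10 (-0.0276 to 0.0357) and Uqcrc2 (-0.127 to 0.0184).

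Slide as a term turned Atp5b (0.0103), Cox7a2l (0.0107), Atp5a1 (-0.145), Cox7b (-0.121), Ndufaf2 (-0.0682) and Ndufb5 (-0.0832). Slide 1 alone turned Cox7a1 (0.0953), Cox7a2l (0.161), Ppargc1a (0.98), Uqcrc2 (0.0029), Atp5a1 (-0.317), Atp5e (-0.000879), Cox7b (-0.128), CYTB (-0.0359), Ndufa4 (-0.0452), Ndufaf2 (-0.189), Ndufb5 (-0.00259) and Uqcr10 (-0.00672). Slide 2 alone turned Atp5b (0.0837), Atp5a1 (-0.00145), Cox7b (-0.116), ND1 (-0.0807) and Ndufb5 (-0.15). Cyclic loess turned Atp5b (0.239), Cox6b1 (0.0295), Cox7a1 (0.0604), Cox7a2l (0.0149), Ndufa13 (0.183), Uqcrc2 (0.0345), Cox7b (-0.0934), ND5 (-0.0135), Ndufaf2 (-0.0129) and Ndufb5 (-0.0131).

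Cox7a2l also turned with no background correction (0.0171) and with an offset of 50 (0.00881), and Atp5a1 (-0.0298) and Ndufs6 (-0.0845) with the mean of a gene's probes. The authors' values turned Atp5b (0.0463), Esrra (0.0379), Ndufa13 (0.0307), Ppargc1a (0.243) and Ndufa4 (-0.00853), and with the block Atp5b (0.0465), Esrra (0.0489), Ndufa13 (0.0281), Ppargc1a (0.293), Atp5a1 (-0.00377) and Ndufa4 (-0.0266). Low signal limits what can be seen: the 39 weaker members had a median SE of 0.39, against 0.21 for the others.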
